A study of Caenorhabditis elegans with 2 samples.

Results

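The genes annotated as small nuclear RNA (snRNA) in Caenorhabditis elegans, spliced leader RNA genes included, were examined in ChIP-seq peak lists of the transcription factor CEH-24. They were taken as every gene of the biotype snRNA in the Ensembl annotation of WBcel235, which is the ce11 build of the lists, and comprised 129 of 46890 annotated nuclear genes. Their annotated lengths ran from 22 to 187 bp. A gene was assigned the highest signal value among peaks with a summit within 250 bp of the gene, in each list separately, and a gene with no such peak counted as unbound. By position, 62 of the genes lay outside protein-coding genes, 55 lay in introns of protein-coding genes and 12 overlapped an exon of 1.

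CEH-24 is a homeodomain protein of the NK-2 class, known for roles in sublateral neurons and in pharyngeal and vulval muscle. Late embryos of mixed sex were harvested whole 5 h after a population was synchronized by bleaching, and their sonicated chromatin was immunoprecipitated with anti-GFP. The strain, OP673, carries the insertion wgIs673, which expresses CEH-24 with a C-terminal GFP-FLAG tag, and the mutation unc-119(tm4063) III. All samples share this genotype and form 1 group of 2 biological replicates, so no condition could be compared and no test was made. The promoter and the copy number of the transgene, and the cells in which the fusion protein is made, are not given in the labels, and a peak from a whole embryo cannot be assigned to a cell type.

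The snRNAs are short noncoding RNAs that form the core of the spliceosome. Most are made by RNA polymerase II from compact promoters with a proximal sequence element read by the SNAPc complex, whereas some are made by RNA polymerase III from a promoter that also holds a TATA box. Nematodes have in addition spliced leader RNAs, which donate a short leader to the 5′ end of messenger RNAs by trans-splicing. The SL1 leader goes mainly to the first or only gene of a transcript, and SL2 leaders go to downstream genes of operons. SmY RNAs are Sm-bound RNAs found with the trans-splicing machinery.

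The genes fell into 3 families with annotated names and 5 families built from shared 12-mers, each called here by 1 of its members because the annotation does not name the type of snRNA. The named families were 18 SL2 genes, 12 SL1 genes and 10 SmY genes. The R07E5.16 family had 22 genes, the Y47H9A.2 family 18, the sup-39 family 14, the F32B5.9 family 12 and the C52E4.8 family 5, and 18 genes were in none of these. The RNAs of 4 SL2 genes and 1 SL1 gene are printed because the SL2 genes held 3 of the 6 strongest genes and the SL1 genes held none. Capitals mark the 22 bases of the leader, and each RNA is written 5′ to 3′ on its own strand of ce11.
sls-2.1 (chromosome II, 5844865 to 5844974, plus strand): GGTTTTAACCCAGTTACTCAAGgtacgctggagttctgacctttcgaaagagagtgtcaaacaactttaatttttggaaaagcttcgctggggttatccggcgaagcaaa
sls-2.2 (chromosome II, 5543598 to 5543707, plus strand): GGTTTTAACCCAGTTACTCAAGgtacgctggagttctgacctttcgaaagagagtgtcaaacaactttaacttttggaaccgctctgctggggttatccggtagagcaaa
sls-2.3 (chromosome II, 5544164 to 5544273, minus strand): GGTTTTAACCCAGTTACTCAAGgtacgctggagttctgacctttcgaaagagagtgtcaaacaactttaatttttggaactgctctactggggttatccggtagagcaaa
sls-2.15 (chromosome III, 11091010 to 11091121, plus strand): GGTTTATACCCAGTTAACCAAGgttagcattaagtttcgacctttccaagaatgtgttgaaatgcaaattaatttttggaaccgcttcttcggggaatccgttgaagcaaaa
sls-1.10 (chromosome V, 17120694 to 17120791, minus strand): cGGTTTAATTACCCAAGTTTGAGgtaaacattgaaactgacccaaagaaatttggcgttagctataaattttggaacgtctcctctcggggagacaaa

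The other 3 of the 6 strongest genes belonged to the R07E5.16 family. The RNAs of W05B2.8, C28A5.7 and R07E5.16 were identical over 102 bases and belonged to a group of 14 genes with the same RNA. W05B2.8 lies on the plus strand of chromosome III from 10989679 to 10989780. F54D8.7, on the minus strand of chromosome III from 5080798 to 5080898, is annotated at 101 bp and shared its RNA with Y17G9A.85 and T08B6.62.

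Deposited peaks were of 3 kinds. Each replicate had a relaxed list, both had a pooled list, and a shorter list held the optimal peaks derived from the other lists. On the nuclear chromosomes the pooled list had 30000 peaks with signal values from 25.5 to 556.5, of which 420 had a deposited q-value of 0.05 or less. The 276 optimal peaks had values from 102 to 556.5. Peaks of q 0.05 or less numbered 226 in replicate 1 and 729 in replicate 2, so the relaxed lists consist mostly of entries above that threshold. Signal scales differ between lists, and the read depth behind them is unknown.

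CEH-24-GFP peaks reached the optimal list at 6 of the 129 genes, and these came from 2 families. They were the SL2 genes sls-2.1, sls-2.2 and sls-2.4 and the R07E5.16 family genes W05B2.8, F54D8.7 and C28A5.7. The share was 4.65%, beside 1.07% of all annotated genes. A pooled peak of q 0.05 or less lay at 7 genes (5.43%, beside 1.45% of all genes), the seventh being sls-2.9. In replicate 1 such a peak lay at 5 of the 129 genes, beside 0.859% of all genes, and in replicate 2 at 7 of them, beside 1.97%.

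Most of the other genes carried weak peaks or none. A pooled peak of any strength lay at 33 genes (25.6%), beside 32.9% of all genes, of which 50.4% are longer than the longest snRNA gene and so have wider windows. When only the 5′ end of each gene was used, so that every gene had the same window, the share was 23.3% beside 16.7%, and the order was turned. With that window 4.65% had an optimal peak, beside 0.761% of all genes. The median pooled signal over the 33 genes was 50.6, beside 38.2 over all genes with a pooled peak. A further 7 genes had a peak of replicate 1 and 10 a peak of replicate 2 but no pooled peak, with signals from 16.6 to 27.5 and from 17.0 to 29.6. Across the lists 50 genes had a peak in 1 or more and 79 had none.

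**Figure D1:**
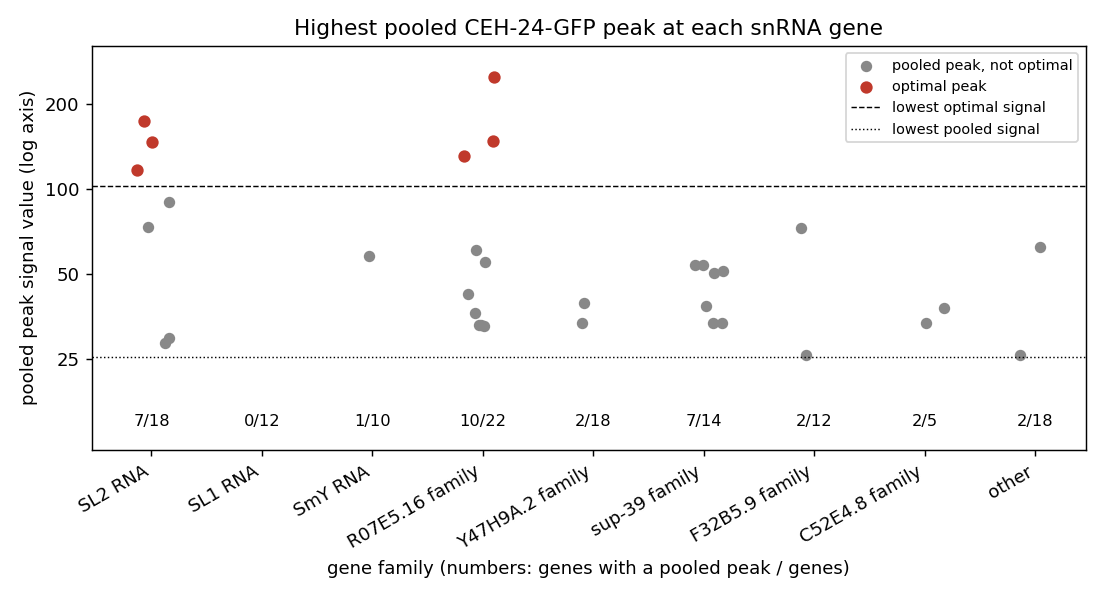
Highest pooled signal value of each snRNA gene with a pooled peak, on a log axis, by family; each point is 1 gene, dashed and dotted lines are the lowest optimal and lowest pooled signal, and the counts give genes with a pooled peak of all genes in the family. The 6 genes with an optimal peak lie in the SL2 and R07E5.16 families, from 117 to 248, and no SL1 gene has a point.

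SL2 genes had pooled peaks at 7 of 18 (38.9%), beside 32.9% of all genes, many of which have wider windows. Signals ran from 28.6 to 174, and 4 of the 7 had a q-value of 0.05 or less. At sls-2.1, outside any protein-coding gene, the signal was 174 in the pooled list, where it ranked 86, and 84.5 in replicate 1 and 89.9 in replicate 2. At sls-2.4, on chromosome I from 4172206 to 4172315, the pooled signal was 147, at rank 128, and the replicates gave 81.2 and 76.3. At sls-2.2 the pooled signal was 117, at rank 213, with 64.8 in replicate 1 and 68.7 in replicate 2. All 3 thus had a peak of q 0.05 or less in the list of each replicate. None of the 3 had a tRNA, snoRNA or rRNA gene within 250 bp of its summit.

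Below the optimal list, the next SL2 gene was sls-2.9 on chromosome I, from 13297877 to 13297985, with a pooled signal of 90.0 at rank 380. Its replicates differed, with 34.01 in replicate 1, at rank 2870, and 59.5 in replicate 2, at rank 253. Its pooled summit lay 12 bp from the tRNA gene M01E5.t1, and which of these genes the peak belongs to cannot be told apart. At sls-2.15, in an intron of W09D6.5, the pooled signal was 73.5 at rank 738, and the replicates gave 43.2 and 30.2. The remaining SL2 genes with a pooled peak were sls-2.3, at 29.8 with no peak in either replicate, and sls-2.8, at 28.6 with a replicate 2 peak of 20.4 and none in replicate 1. The pooled peak of sls-2.3 lay between it and sls-2.2, on whose window it also fell.

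The strong SL2 genes shared a leader. The 18 SL2 genes carried 11 different leaders of 22 bases, and the most frequent, printed above for sls-2.1, belonged to sls-2.1, sls-2.2, sls-2.3 and sls-2.4. All 4 of these had a pooled peak and 3 had an optimal peak. Of the 14 genes with another leader, 3 had a pooled peak and 0 an optimal peak. Over all annotated genes, many of which have wider windows, the shares were 32.9% and 1.07%. With the 5′ end alone they were 16.7% and 0.761%, a window in which the leader groups were not counted. Among the 4, sls-2.3 counted only through its peak of 29.8, which also fell in the window of sls-2.2 and had no replicate peak. Within this group the RNAs of sls-2.2 and sls-2.3 differed at 3 of 110 bases, with pooled signals of 117 and 29.8, while sls-2.1, with 174, differed from each of them at 8.

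No SL1 gene had a peak in any list. The 12 annotated SL1 genes lie close together on chromosome V, from 17118154 to 17132107, and as background SL1 genes are known to sit in the tandem repeats of the 5S ribosomal RNA genes. Only 2 different RNA sequences occurred among them, 1 shared by 10 genes. Of the 36-mers in each SL1 gene and its 250 bp upstream, between 0% and 18.8% were found once in the genome, with a median of 0%, against a median of 91.8% for the SL2 genes. How reads from repeated sequence were handled is not given in the sources used here, so an absent signal and reads that could not be placed cannot be told apart at these genes.

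Of the 10 SmY genes, 1 had a pooled peak (10%), beside 32.9% of all genes. This was smy-1, in an intron of C33A12.3, with a pooled signal of 57.8 and replicate signals of 29.9 and 21.4. Its summit lay 196 bp past the 3′ end of the gene and 101 bp from smy-2, which the annotation lists as a snoRNA gene. Which of these genes the peak belongs to cannot be told apart. The SmY genes were nearly free of repeated sequence, with a median of 99.8% of 36-mers found once.

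The R07E5.16 family had pooled peaks at 10 of 22 genes (45.5%), beside 32.9% of all genes. Signals ran from 32.7 to 248, and 3 of the 10 had a q-value of 0.05 or less. W05B2.8, in an intron of the dynein heavy chain gene dhc-4, had the highest signal of all 129 genes. Its pooled value was 248, at rank 34 of the list, and its replicate values were 159, at rank 16, and 94.7, at rank 67. F54D8.7, outside any protein-coding gene, had 148 in the pooled list, with 88.4 in replicate 1 and 62.2 in replicate 2. Both genes had a peak of q 0.05 or less in each replicate.

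C28A5.7, in an intron of C28A5.6 on chromosome III from 4426854 to 4426955, had a pooled signal of 131 and a second optimal peak of 103. Its replicate 1 signal was 51.3, with a q-value of 0.117, and its replicate 2 signal was 80.4, with a q-value of 0.0146. It was the 1 gene of the 6 that did not reach q 0.05 in both replicates. Among the 276 highest peaks of replicate 1 alone the other 5 genes were found and C28A5.7 was not, and among the 276 highest of replicate 2 alone all 6 were found with sls-2.9.

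The remaining genes of the R07E5.16 family were much lower. F54C8.9 had a pooled signal of 60.7 with replicate values of 34.7 and 24.8, and R07E5.16 itself had 55.05 with 37.5 and 25.01. Y9C9A.111 had 42.6 with 24.1 and 20.6, and the other 4 lay between 32.7 and 36.4 with at most 1 replicate peak each. Genes with 1 and the same RNA thus differed widely: of the 14 identical genes 7 had a pooled peak and 2 an optimal peak, with signals from 32.7 to 248. By chromosome, 6 of 7 genes of the family on III had a pooled peak and 3 an optimal peak, whereas on IV 4 of 13 had a pooled peak and 0 an optimal peak, and on V 0 of 2 had either. The median share of 36-mers found once was 71.6% on III and 65.7% on IV, but the medians hide a spread. On IV the K09B11 genes lay from 17.98% (K09B11.15) to 43.5% (K09B11.14), and only K09B11.12 among them had a pooled peak. On III F54C8.8 (40.4%) and F54C8.9 (39.4%) lay below 50%, and both had a pooled peak. Among the family's genes at 50% or more, only F54C8.10 on III had no pooled peak. On IV F36A4.23, Y17G9A.90, T20D3.12 and T20D3.13 had none. The part of repeated sequence in the difference between III and IV was not tested.

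The sup-39 family, which holds the suppressor genes sup-6 and sup-39 known as mutant U1 snRNA genes, had 7 of 14 genes with a pooled peak and none with an optimal peak. Signals ran from 33.6 to 53.9. At sup-39 the pooled signal was 53.9, and the replicates gave 22.6 and 35.7. The same peak served mir-1831, a 22-bp entry annotated inside sup-39. At sup-6 the pooled signal was 51.5 and replicate 2 gave 42.5, with no peak in replicate 1. H27M09.6 had 50.6 with 27.7 and 20.7, and F08H9.10, which overlaps an exon of the heat shock gene hsp-16.20, had 38.4 with 17.1 and 17.7. All these values lay far below the optimal list.

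In the F32B5.9 family 2 of 12 genes (16.7%) had a pooled peak, beside 32.9% of all genes. F38E11.10, the strongest gene outside the SL2 and R07E5.16 families, had a pooled signal of 72.6 at rank 781 and replicate signals of 29.5 and 29.9. The other was C53B4.9, with 26.0. The Y47H9A.2 family had 2 of 18, Y57G11C.35 at 39.5 and F56H6.16 at 33.6, and the C52E4.8 family 2 of 5, F10D2.13 at 38.0 and C52E4.8 at 33.5. The peak at C52E4.8 lay 353 bp from the start of snr-4, a gene for an Sm protein. Of the 18 genes outside all families, M163.13 on the X chromosome had 62.4, with 44.2 in replicate 2 and none in replicate 1, and F56A12.5 had 25.8.

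Both replicates had a peak at 18 genes. Across these genes the replicate signals had a Spearman rho of 0.80 and a Pearson r of 0.85 on the log2 scale. This describes genes of the same 2 libraries, whose lists share a control, and sup-39 and mir-1831 enter it with the same peak. Of these 18, the 6 genes with an optimal peak and sls-2.9 lay at 59.5 or above in replicate 2, and the others lay at 35.7 or below. The optimal list derives from these same lists, so a gap of this kind was favoured by the choice of genes. M163.13 at 44.2 and sup-6 at 42.5, which had no replicate 1 peak, lay inside the gap. In replicate 1 the groups overlapped, with sls-2.15 at 43.2 above sls-2.9 at 34.01.

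**Figure D2:**
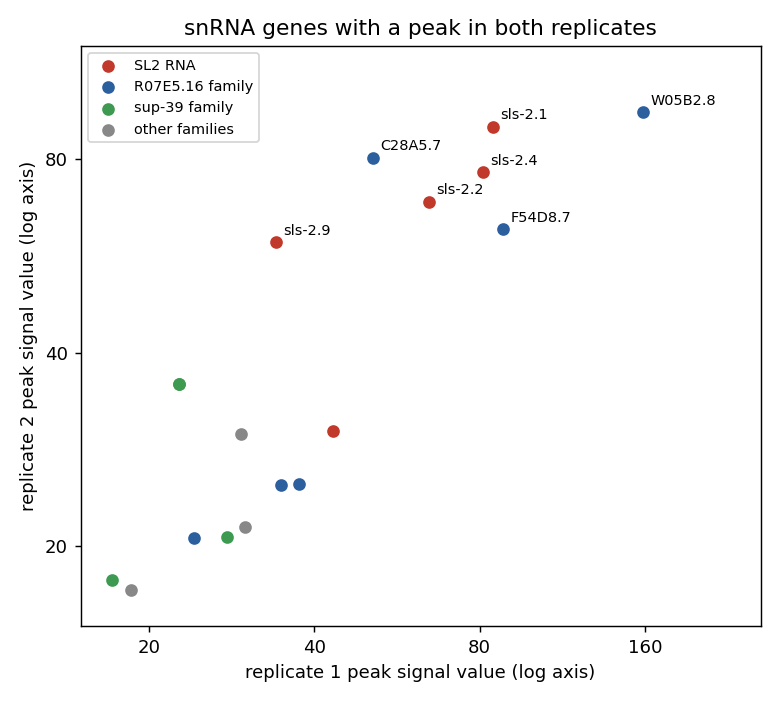
Signal value in replicate 1 (x axis) and replicate 2 (y axis), both on log axes and each on its own list's scale, for the 18 snRNA genes with a peak in both; each point is 1 gene, coloured by family, and sup-39 and mir-1831 fall on 1 point. Among these 18, the 6 genes with an optimal peak and sls-2.9 lie highest on the replicate 2 axis. The optimal list derives from the lists plotted, and genes with a peak in replicate 2 only are not shown.

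The summits did not sit at a fixed place relative to the genes. The pooled summit lay upstream of the 5′ end at 17 of the 33 genes (51.5%), inside the gene at 7 and downstream at 9. Since sup-39 and mir-1831 share a peak, as do T27E4.22 and T27E4.12, there were 31 different summits, of which 15 lay upstream (48.4%, Wilson 95% interval 31.97 to 65.16, counting error only). The median offset from the 5′ end was -3 bp. At the genes with an optimal peak the median was 137 bp, since 4 of the 6 had their summit past the 3′ end: W05B2.8 by 26 bp, sls-2.4 by 38 bp, sls-2.2 by 41 bp and C28A5.7 by 52 bp. The summit of sls-2.1 lay 3 bp upstream of its 5′ end and that of F54D8.7 27 bp upstream.

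Replicates placed these summits differently. At W05B2.8 the summits were 155 and 125 bp from the 5′ end in replicates 1 and 2, and at sls-2.4 they were 142 and 124 bp from it. At C28A5.7 they were 213 and 33 bp, at sls-2.2 200 and 69 bp, and at sls-2.1 56 and 93 bp. These are summits of the highest peak in each replicate. At C28A5.7 replicate 1 had a second peak of 47.1, beside 51.3 for the highest, with its summit 4 bp from the 5′ end. At F54D8.7 replicate 1 had its summit 68 bp upstream and replicate 2 37 bp inside the gene. In 99.9% of pooled peaks the listed summit was the middle of a peak of up to 496 bp, which is wider than these genes of about 100 bp. At W05B2.8 and sls-2.4 the pooled summit and both replicate summits lay past the 3′ end. At C28A5.7, sls-2.2, sls-2.1 and F54D8.7 the lists placed the summit on different sides of a gene end. The side of binding could not be told at those genes.

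**Figure D3:**
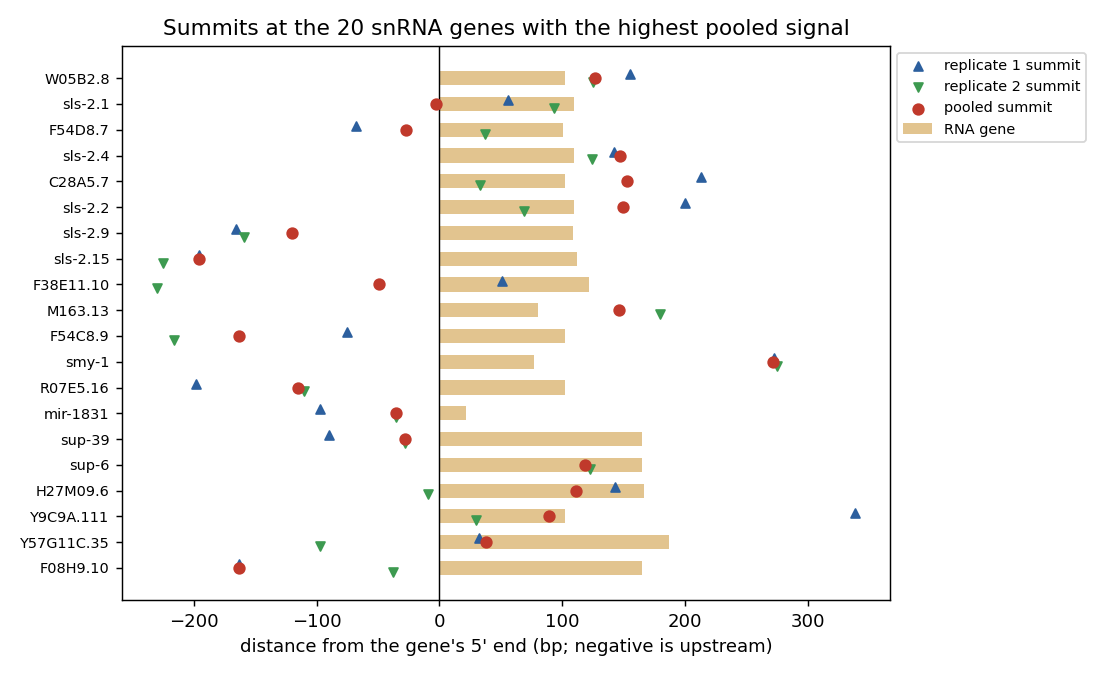
Distance in bp from the 5′ end of the gene, negative upstream, of the pooled summit (circles) and the replicate summits (triangles) for the 20 snRNA genes with the highest pooled signal, in descending order; bars show the annotated gene. Summits lie on both sides of the genes and replicate summits of 1 gene often do not coincide.

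Genes for snoRNAs and tRNAs had peaks at higher shares, and rRNA genes, with a pooled peak at 1 of 20 and an optimal peak at 0, at lower shares. Repeated sequence was not measured for rRNA genes, so absent signal and reads that could not be placed cannot be told apart there. An optimal peak lay at 43 of 346 snoRNA genes (12.4%) and at 99 of 612 tRNA genes (16.2%), and a pooled peak at 37.3% and 54.9% of them. Median pooled signals were 56.5 at snoRNA genes and 71.3 at tRNA genes, both above the 50.6 of the snRNA genes. Summits lay upstream at 58.9% of snoRNA genes and at 33.3% of tRNA genes. Median offsets at optimal peaks were -44 bp for snoRNA and 24 bp for tRNA genes. None of these differences was tested.

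Peaks were also counted by how much of a gene's sequence is repeated. In 97 of the 129 genes 50% or more of the 36-mers of the gene and its 250 bp upstream were found once in the genome, and 29 of these (29.9%) had a pooled peak and 6 (6.19%) an optimal peak. Among the 32 genes below that share 4 (12.5%) had a pooled peak and 0 an optimal peak. Without the 12 SL1 genes, a split added after seeing the data, it was 4 of 20. The part of mapping in this difference was not tested. Families did not follow the same order. The SmY genes, with a median of 99.8% found once, had a pooled peak at 1 of 10, and the F32B5.9 family, with 82.0%, at 2 of 12 (16.7%). The sup-39 family, with 70.1%, had 7 of 14 and the R07E5.16 family, with 71.3%, 10 of 22 (45.5%).

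**Figure D4:**
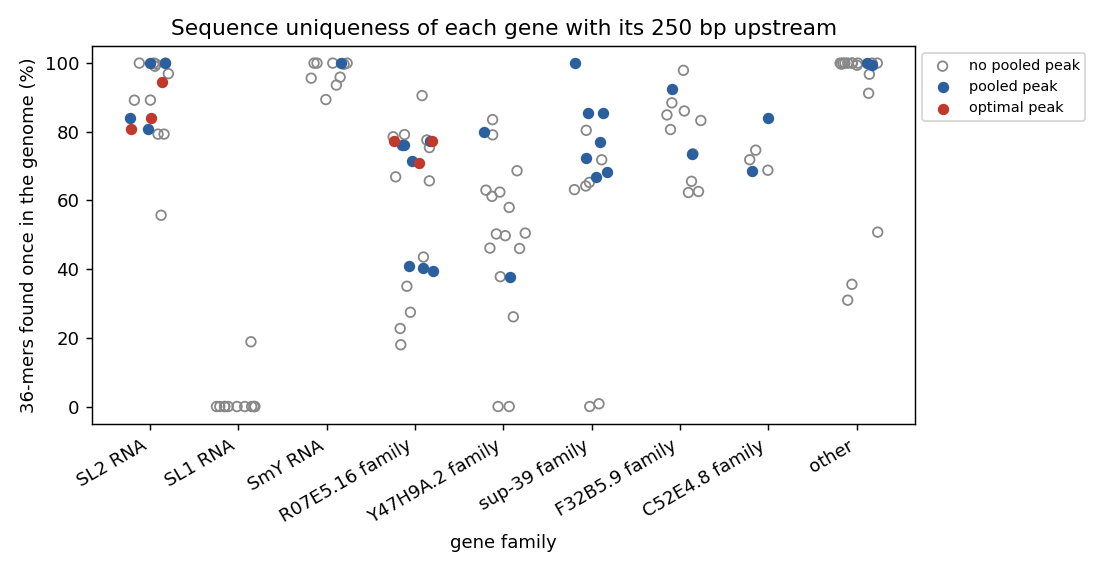
Share of 36-mers found once in the genome, in percent, for each snRNA gene with its 250 bp upstream, by family; filled points have a pooled or an optimal peak and open points have none. All 12 SL1 genes lie at or below 18.8%, and the genes with an optimal peak lie above 70%.

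The 100 bp upstream of the genes held shared words. Upstream sequences are printed for 4 genes of the R07E5.16 family, of which W05B2.8, C28A5.7 and R07E5.16 have the same RNA and different signals. They are also printed for 3 SL2 genes, whose RNAs are alike and whose signals differ, and for sls-2.15, with another leader. TATAA is in capitals in the R07E5.16 family and in sls-2.1, and AACCCGC is in capitals where it occurs. Each ends at the base before the gene and is written on the gene's strand of ce11.
W05B2.8 (chromosome III, 10989579 to 10989678): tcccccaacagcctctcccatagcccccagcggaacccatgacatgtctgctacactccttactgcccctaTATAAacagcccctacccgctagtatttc
F54D8.7 (chromosome III, 5080899 to 5080998): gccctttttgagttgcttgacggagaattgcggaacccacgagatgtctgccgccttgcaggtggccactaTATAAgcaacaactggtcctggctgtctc
C28A5.7 (chromosome III, 4426956 to 4427055): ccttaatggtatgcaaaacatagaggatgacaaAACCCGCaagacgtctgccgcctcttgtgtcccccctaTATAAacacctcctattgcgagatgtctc
R07E5.16 (chromosome III, 4414085 to 4414184): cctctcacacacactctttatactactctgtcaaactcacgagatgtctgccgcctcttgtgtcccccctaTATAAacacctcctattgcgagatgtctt
sls-2.1 (chromosome II, 5844765 to 5844864): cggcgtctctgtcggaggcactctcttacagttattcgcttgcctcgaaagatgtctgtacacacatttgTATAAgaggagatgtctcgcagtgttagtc
sls-2.2 (chromosome II, 5543498 to 5543597): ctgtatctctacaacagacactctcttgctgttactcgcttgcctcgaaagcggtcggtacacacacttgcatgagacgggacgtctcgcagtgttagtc
sls-2.3 (chromosome II, 5544274 to 5544373): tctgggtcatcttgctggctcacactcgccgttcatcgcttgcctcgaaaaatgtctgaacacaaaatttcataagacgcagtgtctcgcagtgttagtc
sls-2.15 (chromosome III, 11090910 to 11091009): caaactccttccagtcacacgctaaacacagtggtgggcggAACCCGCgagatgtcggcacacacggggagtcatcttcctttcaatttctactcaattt

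The 7-mer found upstream of the most of these genes, on their own strand, was AACCCGC, with no overlap with the other words. Because it was picked for its frequency in these same genes, its high share and its strand among them were favoured in advance. The word was then searched on both strands. It lay upstream of 33 of the 129 genes (25.6%), always on the gene's own strand, beside 0.405% of all genes, 5.49% of snoRNA genes, 0.327% of tRNA genes and 0.300% of protein-coding genes. It occurred at 10 of 12 genes of the F32B5.9 family, 9 of 14 of the sup-39 family, 9 of 18 SL2 genes, 2 of 10 SmY genes, 2 of 22 of the R07E5.16 family and 1 of 5 of the C52E4.8 family. Its first base lay at a median of -59 in the SL2 genes and -58 in the F32B5.9 family. Of the genes with an optimal peak 1 of 6 held it, C28A5.7. TATAA on the gene's own strand lay upstream of 16 of 22 genes of the R07E5.16 family, at a median first base of -29, and of 1 of 18 SL2 genes, sls-2.1, at -30, beside 20.3% of all genes. TATAA was held by 4 of the 6 genes with an optimal peak, beside 19 of the 123 without one (15.4%). The 4 were sls-2.1 and the R07E5.16 family genes W05B2.8, F54D8.7 and C28A5.7, so the count largely follows the family.

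Words of the NK-2 class occurred at shares near those of all genes. TNAAGTG on either strand lay upstream of 6 of the 129 genes (4.65%), beside 5.05% of all genes, and of 0 of the 6 with an optimal peak. Its core AAGTG, which TNAAGTG contains, lay upstream of 20.2%, beside 20.3%. In windows of 201 bp around the 31 different pooled summits TNAAGTG was found in 3 (9.68%), beside 9.08% of all pooled peaks, and AAGTG in 11 (35.5%), beside 36.04%. GTTCGA, letters of the internal B box of tRNA genes, was found in 5 of the 31 windows (16.1%), beside 6.87% of all pooled peaks. These are matches of letters and say nothing of what is bound.

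Protein-coding starts lay near some of the strong peaks. Within 1000 bp of the summit at sls-2.1 were starts of ZK1248.17 (679 bp) and H41C03.3 (915 bp), at F54D8.7 that of cox-6A (799 bp), a cytochrome oxidase subunit gene, and at sls-2.4 that of egg-5 (764 bp), which acts in the change from oocyte to embryo. No such start lay within that distance at W05B2.8, C28A5.7 or sls-2.2.

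Genes for the proteins that make or carry these RNAs were examined as well. Of 58 listed genes 53 were matched, and 3 of them (5.66%) had an optimal peak within 1000 bp of a start, beside 1.11% of all protein-coding genes. A pooled peak lay at 29 (54.7%), beside 49.9%, with a median signal of 42.9, beside 37.9 for all protein-coding genes. The Sm protein gene snr-1 had a pooled signal of 222, with 135 and 84.3 in the replicates, at a summit 479 bp upstream of its start and 132 bp from snx-13. The LSm gene lsm-3 had 110, with 55.3 and 55.03, at a summit 959 bp upstream and nearer to mdt-9 and Y62E10A.23. The Integrator gene ints-8 had 312, with 152 and 169, 906 bp downstream of its start and 15 bp from rpr-1, the gene of the RNase P RNA.

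By group, pooled peaks lay at 2 of 7 genes of SNAPc, the complex that reads the proximal sequence element, with signals of 36.1 and 41.6. They lay at 6 of 7 Sm protein genes, 5 of 7 LSm genes, 3 of 5 genes for proteins of the spliced leader particles, 6 of 11 Integrator genes, 5 of 14 genes for U snRNP proteins and both genes of the SMN list. An optimal peak was found at 1 Sm, 1 LSm and 1 Integrator gene and at none of the 7 SNAPc, 5 spliced leader particle, 14 U snRNP and 2 SMN genes.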

How the data were processed

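Peak lists of 2 biological replicates, of both together (pooled) and of optimal peaks were used as deposited on ce11; the ce10 lists were not used. Per the file headers, each replicate list and the pooled list derive from alignments and the same control file, whose kind is not stated, and the optimal list derives from those lists. Not given in the sources used here are the aligner, the peak caller and their settings. Each peak's signal and −log10 q-value are the authors' own, as deposited, and the signal was used only to describe and rank peaks within 1 list.

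Genes came from Ensembl release 115 and sequence and symbols from RefSeq (WBcel235), by WormBase ID, with all 129 names matched. Peaks were assigned to genes within 250 bp in Python 3.11.15 (numpy 2.4.6, pandas 2.3.3, scipy 1.17.1, matplotlib 3.10.9), and to protein-coding genes within 1000 bp of any of 29314 starts. Families joined genes sharing 50% of 12-mers, and the groups of R07E5.16 and F54D8.7 were given 1 label. The assignment was tested on simulated data with peaks planted at known distances. No significance test was made, since there is 1 group. Depth is unknown, so no interval rests on reads, and the Wilson interval covers counting error only. Genes were named by rule: every one with an optimal peak, the 20 genes with the highest pooled signal, SL genes with a pooled peak, the 3 genes just below the optimal list, and listed pathway genes and neighbouring starts with an optimal peak; other names were chosen after their values were seen. The genes, lists, words and windows were chosen with earlier results of these data known. Alternatives were windows of 100 and 500 bp, overlap of the peak with the gene, the 5′ end alone, 1 gene per locus, genes with little repeated sequence, the upper 50% of the optimal list and each replicate alone.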

Additional observations from a re-analysis of the deposited data

How the results depend on the processing

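No paired analysis was possible because the replicates form 1 group and no test was made. The count of genes with an optimal peak was 4 in the upper 50% of the optimal list and 7 with a window of 500 bp. Taken from the 276 highest peaks of 1 replicate alone, the count ran from 5 to 7. The count with a pooled peak ran from 22 at 100 bp to 40 at 500 bp. Without peaks near a tRNA, snoRNA or rRNA gene, a choice made after seeing the data, 6 genes had an optimal peak, 31 a pooled peak and 6 a pooled peak of q 0.05 or less. Measuring all genes to the 5′ end was also added after seeing the data. For the other settings in this paragraph the shares of all genes were not computed. Those counts show only how the number of snRNA genes moved, and cannot be set beside a background.

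The median pooled signal of 50.6 was 41.0 with the window of 500 bp and 51.5 over genes with 50% or more of 36-mers found once. It was 25.1 to 26.0 in the replicate lists alone, whose scale differs. The replicate rho was 0.80 over 12 genes at 100 bp, 0.79 over 20 genes at 500 bp and 0.86 over 17 genes with 1 per locus. Counting each different summit once, also added after seeing the data, gave 48.4% of summits upstream. The lists give no read depth, so whether deeper data would raise the weak peaks cannot be said.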
